A study of Mus musculus with 8 samples.

Results

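The genes described here are 9 members of the BMP and TGF-beta pathways, chosen by symbol from the deposited expression table of mouse thyroid follicular cell organoids (TFCOs): the ligands Bmp2, Bmp4 and Tgfb1, the response genes Id1, Id2, Id3 and Id4, and the inhibitory Smads Smad6 and Smad7. The table spells them ID1, ID2, ID3, ID4, SMAD6, SMAD7, BMP2, BMP4 and TGFB1. All 9 were among its 16119 genes, and all 9 were among the 14703 genes that reached 10 normalized counts in at least 2 libraries and were tested. The table holds 8 bulk RNA libraries, 2 in each of 4 groups: early-passage TFCOs, late-passage TFCOs, thyroid tissue and lung tissue. Both passages were sequenced for each of 2 TFCO lines, mThy14 and mThy16, and each line stands for the thyroid of 1 mouse. The methods name female C57BL/6 mice as the source of the organoids, and the labels give no genotype change for any library. TFCOs grew in basement membrane extract with a medium that contained, among other components, B27, N-acetylcysteine, nicotinamide, R-spondin 3 conditioned medium, EGF, FGF10, forskolin and A83-01, while the tissues were not cultured. A83-01 is an inhibitor of the TGF-beta and activin type I receptors Tgfbr1, Acvr1b and Acvr1c. No BMP inhibitor such as Noggin is among the listed components of the mouse medium. Because every TFCO library was grown with A83-01 and no tissue was, culture, medium and inhibitor cannot be told apart in any comparison of TFCOs with tissue.

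BMP and TGF-beta ligands are secreted dimers that bring together type I and type II receptor kinases on the cell surface. BMP receptors phosphorylate Smad1, Smad5 and Smad9, TGF-beta and activin receptors phosphorylate Smad2 and Smad3, and both groups enter the nucleus with Smad4. The Id genes, which encode proteins that bind basic helix-loop-helix factors and keep them off DNA, are classical targets of the BMP branch, and Smad6 and Smad7 are induced by the pathways and act back on the receptors as inhibitors. In the thyroid, TGF-beta is known as a brake on follicular cell growth.

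The values are normalized counts, that is, the reads of a gene scaled by the size factor of its library. They are compared between libraries for 1 gene at a time, and not between genes. The libraries held from 9755081 to 16904865 reads on genes. The libraries fell into 2 sets: 16 genes were at 0 in the 4 TFCO libraries and thyroid tissue 1 and at 50 or more in the other 3 libraries, and 44 genes showed the reverse. By these genes, TFCOs and thyroid tissue 1 are taken as one set, and thyroid tissue 2 and both lung tissues as the other. No count for another split of the libraries was made, and the cause of this split was not tested. Each comparison of TFCOs with lung runs across the sets and cannot be told apart from them. Each call below is an adjusted p under 0.05 by limma on log2(normalized counts + 1), with Benjamini-Hochberg adjustment over all genes tested, and a fold change is on that scale. The p-values measure the spread between these libraries.

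The groups carried their labelled markers. The summed normalized counts of 7 follicular cell genes ranged from 22118 to 175048 in TFCOs, from 1556233 to 2222536 in thyroid tissue and from 2224 to 3255 in lung, where Pax8 was at 0. Nearly all of the thyroid tissue sum was Tg, the thyroglobulin gene, at 1526002 and 2175016, against 9532 to 126441 in TFCOs. None of the 7 was called between TFCOs and thyroid tissue, with a median log2 fold change of -0.28, and Tshr, the TSH receptor gene, was at 1882 to 8582 in TFCOs and at 1287 and 1087 in thyroid tissue. Other cell types moved with the culture: 6 fibroblast genes summed to 91.6 to 247 in TFCOs, with Lum at 0, against 25237 to 29602 in thyroid tissue, and 8 endothelial genes summed to 361 to 844 against 3213 to 9109. All 6 fibroblast genes and 5 of the 8 endothelial genes were called lower in TFCOs than in thyroid tissue. Over all genes tested, 3.05% were called lower. Skeletal muscle genes summed to 1955 to 2638 in TFCOs and 40909 to 129971 in thyroid tissue (4 of 5 called lower), C cell genes to 5.94 to 14.6 and 22878 to 36504 (1 of 2), and parathyroid genes to 7.92 to 27.1 and 9811 to 25996 (2 of 3, Pth at 0 in TFCOs). Adipocyte genes summed to 10.4 to 43.6 and 2270 to 7606 (2 of 4), leukocyte genes to 39.4 to 67.3 and 704 to 1125 (2 of 5), and mural cell genes to 1473 to 2279 and 4632 to 5855 (1 of 4). Most of the mural sum in TFCOs was Myh11, which was not lower there, at 1069 to 1668 against 1206 and 668 in thyroid tissue. In bulk libraries, fewer cells of a type and less RNA per cell cannot be told apart, and the part of these cell types in the results below, Id3 and Bmp5 included, was not tested.

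Promoter sequence of 6 of the 9 genes (Id2, Id3, Id4, Smad6, Bmp4 and Tgfb1) was read from RefSeq on build GRCm38.p6. Shown first are the stretches that hold a match to a motif of these pathways or of neighbouring ones, in capitals, with the start of transcription counted as 0 at the first transcribed base.

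Id2, GGCGCC from position -231: caggccccctgGGCGCCcagcgcacact
Id4, GGCGCC from position -148: tcgggttgcccGGCGCCccgccctcgcc
Bmp4, CACGTG from position -188: agtacctcttgCACGTGgtccccaggtg
Smad6, GTCTAGAC from position -4: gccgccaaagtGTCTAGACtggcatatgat

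GGCGCC is a GC-rich box bound by BMP Smads, GTCTAGAC a palindromic Smad box, CACGTG an E-box, the kind of site that basic helix-loop-helix proteins bind, and TGACGTCA the full cAMP response element, which was searched for because forskolin raises cAMP. All 4 motifs read the same on both strands. In the 250 bases before the start, GGCGCC stood in 2 of the 6 promoters and in 9.59% of 32851 mouse promoters, CACGTG in 1 of the 6 and in 6.02%, and GTCTAGAC and TGACGTCA in none of the 6 and in 0.167% and 1.55%. The Smad6 match crosses the start of transcription. It appeared only when the search was widened, after the first result was seen, to the full 300-base window with 50 bases past the start, in which GTCTAGAC stood in 0.213% of promoters, GGCGCC in 11.9%, CACGTG in 7.15% and TGACGTCA in 1.79%. Id3 and Tgfb1 held none of the 4 motifs in either window. A match is a description of the letters, not of a bound site. The 250 bases before the start were 62.8% to 75.6% G or C in the 6 promoters, beside a median of 52.4% over all promoters. The 250 bases before the start of Id4, the gene with the highest ratio between the tissues among the 9, lie at chr13:48260866-48261115 on the plus strand, and the capitals mark the same box. This start is the RefSeq one. In GENCODE M21, Id4 begins further along, at base 48261228, and no Id4 transcript holds the bases that follow the RefSeq start. For Id2 and Id3, the 250 bases before the RefSeq start lie inside the GENCODE gene. On the minus strand, Id2 reaches to base 25097140, beyond its window of 25096093 to 25096342, which holds its box. On the plus strand, Id3 begins at base 136143497, before its window of 136143572 to 136143821.

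Id4: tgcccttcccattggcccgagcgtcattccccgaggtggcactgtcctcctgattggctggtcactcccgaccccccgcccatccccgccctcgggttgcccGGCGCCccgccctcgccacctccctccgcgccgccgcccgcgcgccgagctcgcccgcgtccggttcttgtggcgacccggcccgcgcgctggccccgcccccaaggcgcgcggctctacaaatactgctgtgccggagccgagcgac

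Of the ligands, none was called between TFCOs and either tissue. Bmp2, a ligand of the BMP receptors, was at 33.7 in early and 134 in late mThy14, at 28.7 in early and 19.0 in late mThy16, at 185 and 248 in thyroid tissue, and at 96.3 and 97.1 in lung. All 4 TFCO libraries were below both thyroid tissues, and late mThy14 stood above both lungs while the other 3 TFCO libraries stood below them. The log2 fold change of Bmp2 in TFCOs was -2.40 (SE 0.71, adjusted p = 0.135) against thyroid tissue and -1.26 (SE 0.71, adjusted p = 0.207) against lung.

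Bmp4, the second BMP ligand, was at 1108 in early and 1342 in late mThy14, at 387 in early and 368 in late mThy16, at 383 and 82.1 in thyroid tissue, and at 968 and 962 in lung. The mThy14 libraries were above all 4 tissues, whereas the mThy16 libraries were level with thyroid tissue 1 and below both lungs. The log2 fold change against thyroid tissue was 1.93 (95% interval 0.01 to 3.84, adjusted p = 0.265), and it depended on which thyroid tissue was used. Against thyroid tissue 1, of the same set, it was 0.82, and against thyroid tissue 2 alone, of the other set, it was 3.03. Each of these 2 values rests on 1 thyroid tissue.

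Tgfb1, the founding TGF-beta ligand, was at 956 in early and 646 in late mThy14, at 264 in early and 250 in late mThy16, at 557 and 465 in thyroid tissue, and at 793 and 970 in lung. The thyroid tissues lay between the 2 lines. The interval of the log2 difference between TFCOs and thyroid tissue ran from -1.46 to 1.11, which leaves room for a change of more than 2-fold either way.

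**Figure D1:**
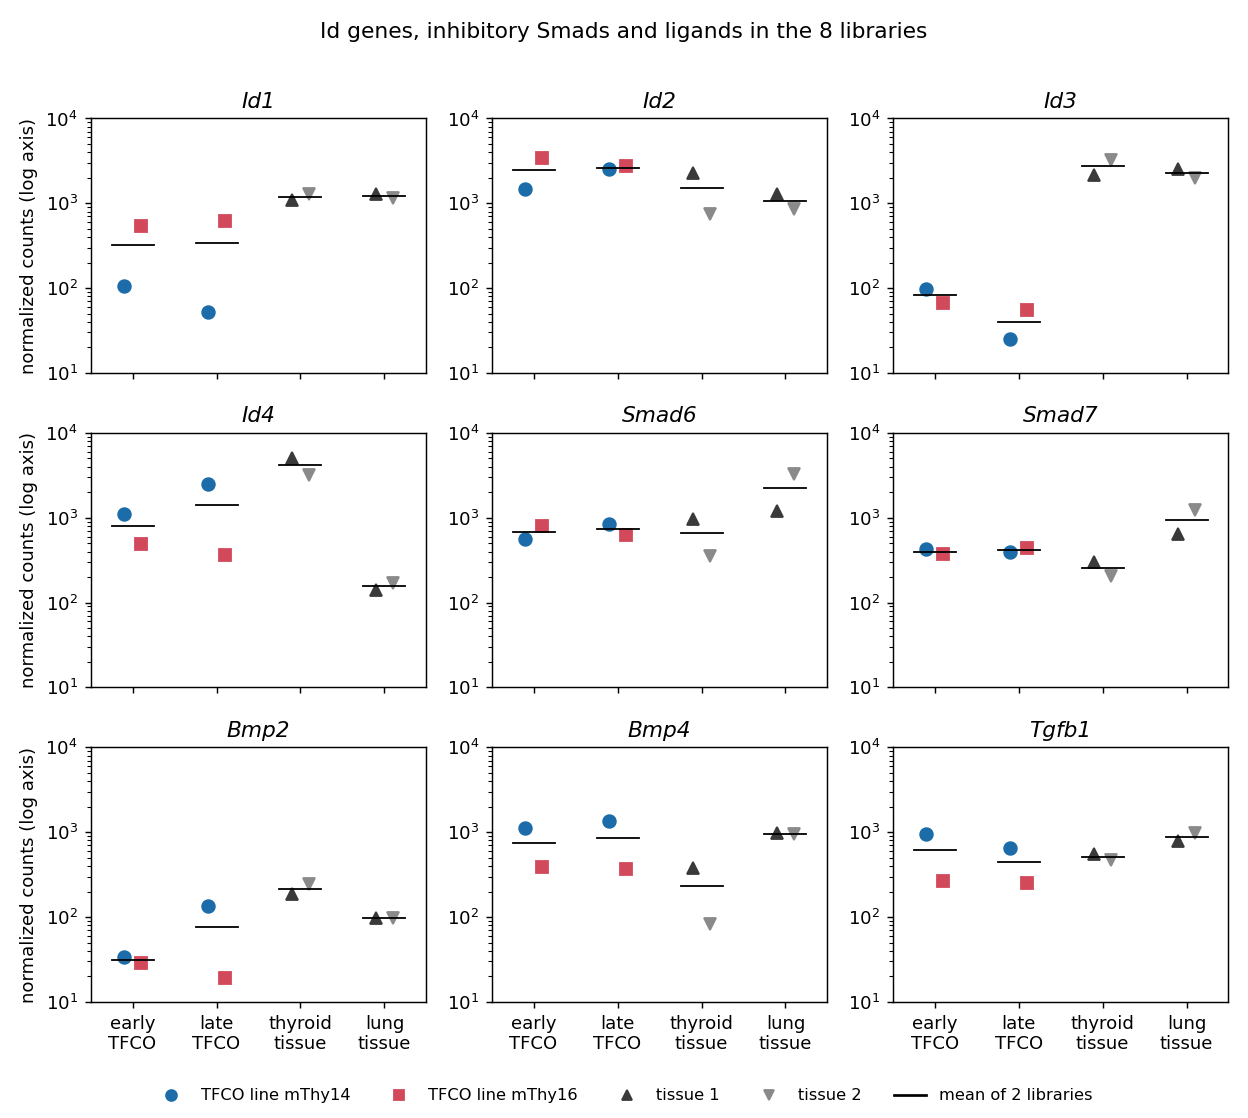
Normalized counts on a log axis (vertical) in early TFCOs, late TFCOs, thyroid tissue and lung tissue (horizontal) for each of the 9 genes, with 1 point per library and a bar at the mean of 2 libraries. The 4 TFCO libraries of Id3 lie between 25.0 and 97.0 and the 4 tissue libraries between 1974 and 3250, while Bmp4 and Tgfb1 split by TFCO line.

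Of the response genes, Id3 changed most. It was at 97.0 in early and 25.0 in late mThy14, at 67.3 in early and 54.8 in late mThy16, at 2185 and 3250 in thyroid tissue, and at 2537 and 1974 in lung. These values rest on 69, 24, 68 and 49 reads in the 4 TFCO libraries and on 2007 to 3525 reads in the tissues. Every TFCO library was far below every tissue, and both lines were low.

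Id3 was 47.8-fold lower in TFCOs than in thyroid tissue (log2 fold change -5.58, SE 0.37, adjusted p = 0.00151) and 40.1-fold lower than in lung (log2 fold change -5.33, SE 0.37, adjusted p = 0.000546). Against thyroid tissue 1 alone, in the same set of libraries, the log2 difference was -5.29, with the 4 TFCO libraries between -6.39 and -4.48. That value rests on 1 thyroid tissue. Id3 did not differ detectably between thyroid and lung, with a log2 difference of 0.25 and a 95% interval of -0.63 to 1.13. In the mouse annotation, which may not be the one the reads were counted on, the gene lies at chr4:136143497-136145755 on the plus strand of GRCm38, overlaps no other gene there, and none of its 1741 stretches of 50 transcribed bases is shared with another gene.

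Id1, a paralogue of Id3, was at 105 in early and 52.0 in late mThy14, at 543 in early and 622 in late mThy16, at 1088 and 1287 in thyroid tissue, and at 1290 and 1163 in lung. All 4 TFCO libraries were below all 4 tissues, but the lines stood far apart. The log2 fold change was -2.50 (SE 0.85, adjusted p = 0.181) against thyroid tissue and -2.55 (SE 0.85, adjusted p = 0.0654) against lung, and neither passed the test.

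Id2 had the opposite sign. It was at 1486 in early and 2508 in late mThy14, at 3414 in early and 2745 in late mThy16, at 2271 and 756 in thyroid tissue, and at 1285 and 857 in lung. The TFCO libraries overlapped with thyroid tissue 1 and were above the other 3 tissues. The log2 fold change against thyroid tissue was 0.89 (95% interval -0.46 to 2.24, adjusted p = 0.412). It was 0.10 against thyroid tissue 1 and 1.68 against thyroid tissue 2 alone, of the other set. Each of these 2 values rests on 1 thyroid tissue.

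Id4 ordered the groups. It was at 1099 in early and 2481 in late mThy14, at 485 in early and 366 in late mThy16, at 5085 and 3199 in thyroid tissue, and at 141 and 172 in lung. The 3 groups did not overlap, with thyroid tissue highest, TFCOs between and lung lowest.

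Id4 was 25.8-fold higher in thyroid tissue than in lung (log2 fold change 4.69, SE 0.64, adjusted p = 0.0127) and 5.34-fold higher in TFCOs than in lung (log2 fold change 2.42, SE 0.64, adjusted p = 0.0386). Follicular cell genes (5 of 7 called) were also higher in thyroid tissue than in lung. So were skeletal muscle genes (5 of 5, sums of 40909 to 129971 against 209 to 510), parathyroid genes (3 of 3) and C cell genes (1 of 2). Over all genes tested, 2.89% were called higher in that comparison. Between TFCOs and lung, 6 of 7 follicular cell genes were called higher, against 9.83% of all genes tested. Of 5 skeletal muscle genes, 2 were called higher and 1 lower there, and 0 parathyroid and 0 C cell genes were called. The part of these cell types in the Id4 differences was not tested. The lower level of Id4 in TFCOs than in thyroid tissue did not pass the test (log2 fold change -2.27, SE 0.64, adjusted p = 0.118). The thyroid and lung call was lost without thyroid tissue 1 (log2 fold change 4.35, adjusted p = 0.0516), without lung 1 (adjusted p = 0.112) and without lung 2 (adjusted p = 0.102). The TFCO and lung call was lost without early mThy16 (adjusted p = 0.0508), without lung 1 (adjusted p = 0.191), without lung 2 (adjusted p = 0.16), with limma's voom (adjusted p = 0.0674) and without the mean-variance trend (adjusted p = 0.08). In the same annotation Id4 overlaps 2 genes on the opposite strand, and 2.08% of its 50-base stretches are shared with another gene.

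Of the inhibitory Smads, neither was called in any comparison. Smad6, which acts mainly on BMP receptors, was at 561 in early and 840 in late mThy14, at 794 in early and 626 in late mThy16, at 955 and 350 in thyroid tissue, and at 1204 and 3306 in lung. The TFCO libraries lay between the 2 thyroid tissues and below both lungs. The log2 fold change against thyroid tissue was 0.27 (95% interval -1.21 to 1.74), and against thyroid tissue 1 alone it turned to -0.46.

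Smad7, which acts on both branches, was at 424 in early and 394 in late mThy14, at 376 in early and 436 in late mThy16, at 305 and 206 in thyroid tissue, and at 641 and 1219 in lung. The groups did not overlap, with thyroid tissue lowest, TFCOs between and lung highest. The log2 fold change of TFCOs was 0.70 (95% interval -0.36 to 1.75, adjusted p = 0.411) against thyroid tissue and -1.12 (95% interval -2.17 to -0.06, adjusted p = 0.0987) against lung, and thyroid tissue was lower than lung by a log2 difference of -1.82 (adjusted p = 0.0628). The TFCO libraries of Smad7 spanned 376 to 436, so that passages and lines differed little.

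Of the 9 genes, 1 was called between TFCOs and thyroid tissue, against 3.65% of all genes tested, and it was lower, against 3.05%. Between TFCOs and lung, 2 were called, Id3 lower and Id4 higher, against 23.4%, and between thyroid and lung 1 was called, against 6.05%. With 9 genes, counts of 1 or 2 at these shares are not a result about the 9 as a group. Between TFCOs and thyroid tissue, the groups did not overlap for 5 of the 9, against 34.5% of all genes, with Smad7 higher, against 17.2%, and Id1, Id3, Id4 and Bmp2 lower, against 17.3%. Between TFCOs and lung they did not overlap for 6, against 67.7%, with Id2 and Id4 higher, against 34.4%, and Id1, Id3, Smad6 and Smad7 lower, against 33.3%. Between thyroid and lung they did not overlap for 6, against 53.8%, with Id4 and Bmp2 higher in thyroid, against 26.2%, and Smad6, Smad7, Bmp4 and Tgfb1 lower, against 27.5%. The median log2 fold change of the 9 genes was -0.18 against thyroid tissue and -1.12 against lung, beside 0.05 in both over all genes tested. The comparisons with thyroid and with lung share the TFCO libraries.

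**Figure D2:**
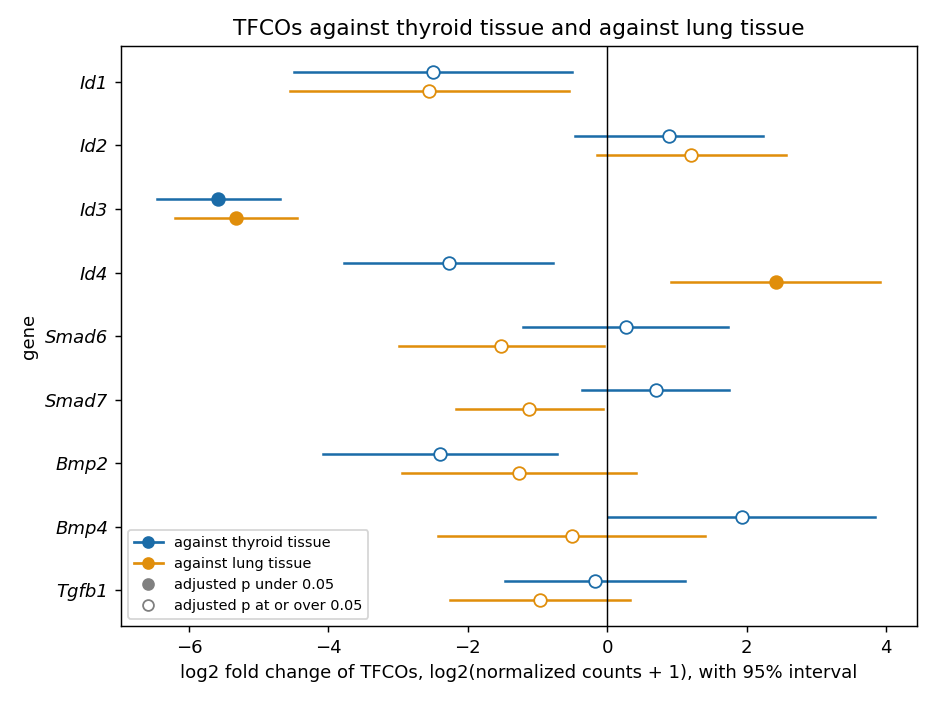
Log2 fold change of TFCOs on the log2(normalized counts + 1) scale (horizontal) against thyroid tissue and against lung tissue for the 9 genes (vertical), with 95% intervals and filled points for an adjusted p under 0.05. Id3 is filled in both comparisons, at -5.58 and -5.33, and Id4 lies at -2.27 against thyroid tissue and at 2.42, filled, against lung.

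Passage moved none of the 9 genes past the test, as it moved 0 of the 14703 genes (percent called 0), with 166 genes (1.13%) at an unadjusted p under 0.05 by limma and 93 by limma's voom, which also called 0. Id3 was the member with the lowest unadjusted p (0.0521), with both late libraries below both early ones, and a log2 difference of -1.10 (95% interval -2.22 to 0.01, adjusted p = 1). The reads were 69 early and 24 late in mThy14, and 68 early and 49 late in mThy16. It was the 1 gene of the 9 whose early and late libraries did not overlap, against 23.3% of all genes, or 12.4% for lower in late TFCOs, and none was higher without overlap, against 11%.

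Between the lines, 6 of the 9 genes did not overlap between the 2 libraries of mThy14 and the 2 of mThy16, against 55.5% of all genes tested. Id4 was 4.21-fold, Bmp2 3.52-fold, Bmp4 3.24-fold and Tgfb1 3.11-fold higher in mThy14 by the ratio of means, and Id1 was 7.39-fold and Id2 1.54-fold higher in mThy16. Id3, Smad6 and Smad7 overlapped, with ratios of mThy14 to mThy16 of 0.999, 0.986 and 1.01. Id1, Id4, Bmp4 and Tgfb1 differed by at least 1 on the log2 scale in the same direction at both passages, which is 44.4% of the 9 genes, beside 14.3% of all genes tested and 24.1% of the other pathway genes. The summed follicular cell markers also differed between the lines, at 175048 and 107373 in mThy14 and 27306 and 22118 in mThy16, with each of the 7 genes higher in both mThy14 libraries, and their part in these values was not tested. With 1 mouse per line these values describe 2 lines, and no test was made.

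Of the 79 other pathway genes tested, 45 (57%) did not overlap between the lines, a share close to the 55.5% of all genes. The following values describe some of them. The type II receptor Tgfbr2 was 6.9-fold and Smad2, which carries the signal of TGF-beta receptors, 3.99-fold higher in mThy16. Tgfbi, a secreted matrix protein induced by TGF-beta, was 5.49-fold higher in mThy14. The activin antagonist Fst was at 9.84 and 0 in mThy14 and at 495 and 504 in mThy16.

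**Figure D3:**
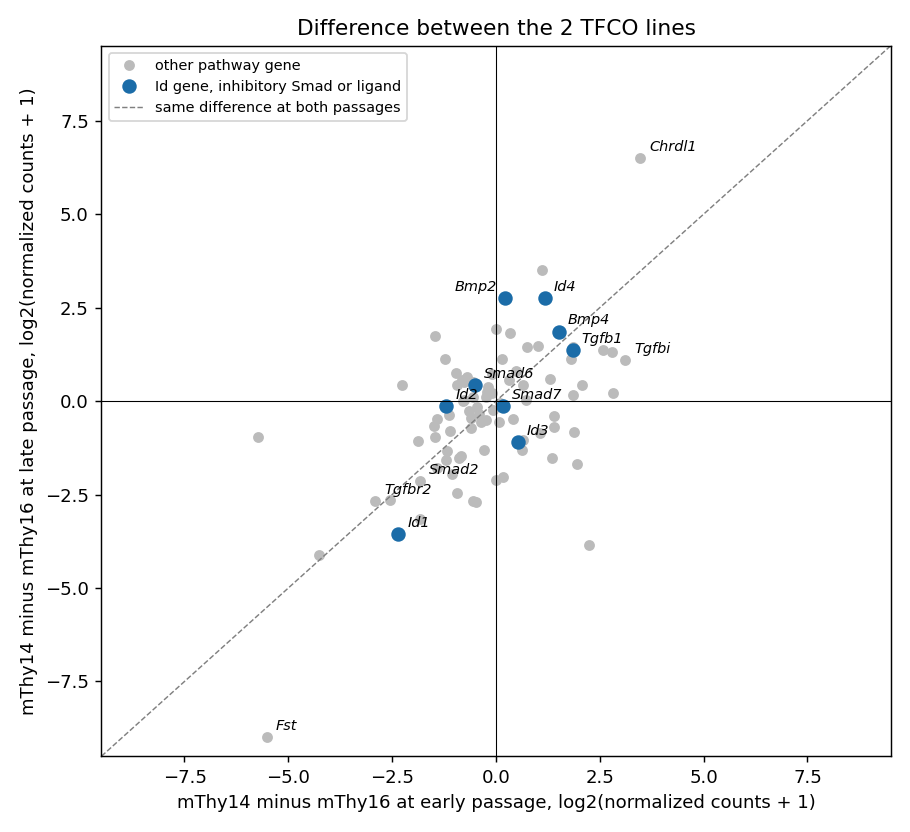
Difference between mThy14 and mThy16 in log2(normalized counts + 1) at early passage (horizontal) and at late passage (vertical), with 1 point per gene for the 9 genes and the other pathway genes. Id1 lies at -2.35 and -3.55, Bmp4 at 1.51 and 1.86, and Smad7 close to the origin at 0.17 and -0.14.

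The other pathway genes on the lists numbered 82 in the table, of which 79 were tested. Between TFCOs and thyroid tissue, 2 of the 79 were called higher and 5 lower, against 0.599% and 3.05% of all genes, with a median log2 fold change of 0.19. Between TFCOs and lung, 10 were called higher and 17 lower, against 9.83% and 13.5%, and between thyroid and lung 2 higher and 8 lower, against 2.89% and 3.16%.

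Among ligands, Inhbb, which encodes an activin subunit, was at 568 in early and 2493 in late mThy14, at 1322 in early and 1150 in late mThy16, at 67.5 and 92.2 in thyroid tissue and at 359 and 256 in lung. It was higher in every TFCO library than in every tissue, 15.2-fold against thyroid tissue (adjusted p = 0.00725). Bmp5, a BMP ligand, was between 22.9 and 64.4 in TFCOs, at 3098 and 2162 in thyroid tissue and at 1441 and 1803 in lung. Like Id3, it was low in all 4 TFCO libraries and high in all 4 tissues, 55-fold lower in TFCOs than in thyroid tissue (adjusted p = 0.00177).

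None of the 3 type I receptors that A83-01 inhibits was called. Tgfbr1 had a log2 fold change of -0.81 against thyroid tissue (95% interval -1.58 to -0.04, adjusted p = 0.246), Acvr1b of 0.77 (-0.05 to 1.59, adjusted p = 0.291) and Acvr1c, which was at 16.9 or less in TFCOs, of -3.04 (-5.97 to -0.11, adjusted p = 0.252). Among the BMP type I receptors, Bmpr1a (-0.38), Bmpr1b (0.87) and Acvr1 (0.77) did not pass the test. Acvrl1, a receptor best known from endothelial cells, was 18.2-fold lower in TFCOs than in thyroid tissue (adjusted p = 0.00653).

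The co-receptors Eng and Tgfbr3 were called lower. Eng, a marker of endothelial cells as well as a TGF-beta co-receptor, was between 4.95 and 21.2 in TFCOs and at 709 and 1562 in thyroid tissue (76.3-fold lower, adjusted p = 0.00519). Its call was lost with limma's voom (adjusted p = 0.0511). Tgfbr3 was 4.41-fold lower (adjusted p = 0.0468) and lost its call when 1 library was left out, be it early mThy14 (adjusted p = 0.0795), early mThy16 (adjusted p = 0.0521), thyroid tissue 2 (adjusted p = 0.152), lung 1 (adjusted p = 0.128) or lung 2 (adjusted p = 0.131). It was also lost with no filter (adjusted p = 0.0528), quantile normalization (adjusted p = 0.0549), no trend (adjusted p = 0.111), only the compared groups in the fit (adjusted p = 0.14) and voom (adjusted p = 0.062). Acvrl1 and Eng moved with the endothelial markers given above.

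The intracellular Smads were not called against thyroid tissue, where Smad3 came closest (log2 fold change 1.58, adjusted p = 0.0605), and Smad3 was called higher in TFCOs than in lung (log2 fold change 2.24, adjusted p = 0.0086). Of 13 secreted antagonists of BMPs and activins, none was called against thyroid tissue, against 3.65% of all genes tested. Against lung, 3 of them were called higher and 5 lower, beside 9.83% and 13.5% of all genes tested. Nbl1 was among the lower ones, with a log2 fold change against lung of -6.02 to -4.99 when 1 library was left out. Its log2 difference was -2.02 against thyroid tissue 1 and -3.67 against thyroid tissue 2. Nog, which encodes the BMP antagonist Noggin, was at 97.0 in early and 247 in late mThy14, at 158 in early and 157 in late mThy16, at 10.9 and 7.38 in thyroid tissue and at 1.68 and 7.41 in lung. TFCOs were above every tissue, with a log2 fold change of 3.98 against thyroid tissue (SE 0.96, adjusted p = 0.078) and of 5.05 against lung (adjusted p = 0.0158). Without lung 1 or lung 2 the calls against lung of Nog (adjusted p = 0.148 and 0.0891) and of Smad3 (adjusted p = 0.0799 and 0.0999) were lost. Sostdc1, another BMP antagonist, was between 65.6 and 216 in TFCOs and at 0 and 0.674 in lung (adjusted p = 0.00373). Unlike Nog, it was lower in TFCOs than in thyroid tissue, though not called. The log2 difference was -1.94 against thyroid tissue 1 and -1.07 against thyroid tissue 2, each resting on 1 tissue. Thyroid tissue 2 was above lung by 7.71 on the log2 scale. Ltbp4, which binds latent TGF-beta in the matrix, was 9.77-fold lower in TFCOs than in thyroid tissue (adjusted p = 0.0129), a call lost without thyroid tissue 2 (adjusted p = 0.0569).

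The 8 other TGF-beta target genes had a median log2 fold change of 2.05 against thyroid tissue, and 6 of the 8 were higher in all 4 TFCO libraries than in both thyroid tissues, against 17.2% of all genes. Against lung the median was 0.28, with 3 of the 8 higher without overlap, against 34.4%, and 5 of the 8 were lower in thyroid tissue than in lung without overlap (median -1.04), against 27.5%. Only Tgfbi was called against thyroid tissue. It was at 48676 in early and 11218 in late mThy14, at 5633 in early and 5280 in late mThy16, at 610 and 663 in thyroid tissue and at 1560 and 815 in lung. Every TFCO library was above every tissue, 17.7-fold against thyroid tissue (adjusted p = 0.0246), and the call was lost without thyroid tissue 2 (adjusted p = 0.115), lung 1 (adjusted p = 0.0531) or lung 2 (adjusted p = 0.0557), with no trend (adjusted p = 0.0657) and with only the compared groups in the fit (adjusted p = 0.0618). Ccn2, a matrix-associated TGF-beta target, was between 25691 and 71828 in TFCOs against 5531 and 6748 in thyroid tissue (log2 fold change 2.79, adjusted p = 0.0539). Against lung it was called, at a log2 fold change of 3.81 (adjusted p = 0.00842), a call lost without lung 1 (adjusted p = 0.117) or lung 2 (adjusted p = 0.0774). The 3 other BMP targets tested had a median of -0.80, and none was called against thyroid tissue.

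**Figure D4:**
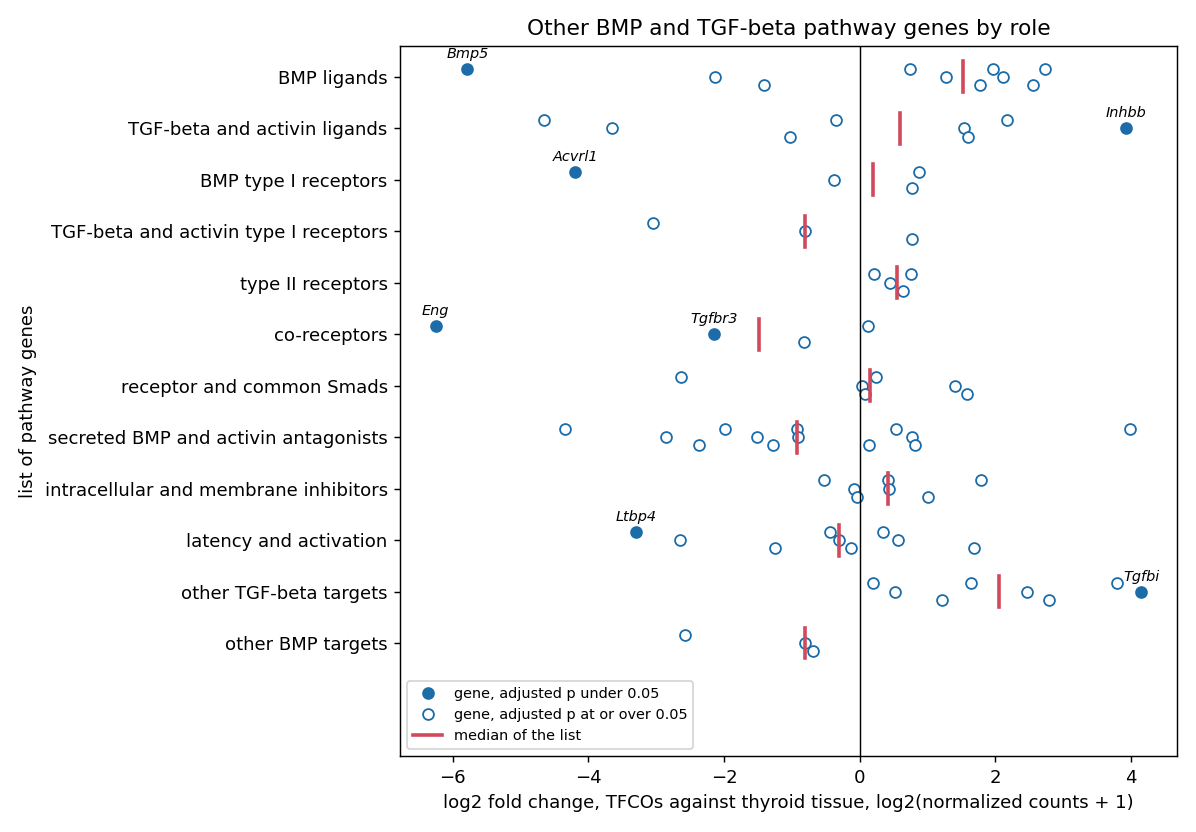
Log2 fold change of TFCOs against thyroid tissue on the log2(normalized counts + 1) scale (horizontal) for the 79 other pathway genes, 1 point per gene, by role (vertical), with filled points for an adjusted p under 0.05 and a bar at the median of each list. Inhbb and Tgfbi are filled above 0 and Bmp5, Acvrl1, Eng, Tgfbr3 and Ltbp4 below it, and the other TGF-beta targets have a median of 2.05.

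For 8 of the 9 genes, the genes with the most similar profile over the 8 libraries were found by Pearson's r of log2(normalized counts + 1), as a description over libraries that share lines, sets and depth. Id3 was most like Hdgfl3 (0.994), Plcl2 (0.993) and Arv1 (0.991), and Id1 most like Hspb1 (0.987). Id2 was most like Ush1g (0.986), Smad6 most like Prkd2 (0.987) and Smad7 most like Sptbn1 (0.974). Bmp2 was most like Zmat1 (0.98), Bmp4 most like Cfap221 (0.975) and Tgfb1 most like Fkbp9 (0.969). None of these genes is one of the 9 or is on the pathway lists. Among the 9, r was 0.90 for Smad6 and Smad7, 0.80 for Id1 and Id3, and -0.80 for Id4 and Smad7.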

How the data were processed

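RNA of 8 mouse libraries was measured. The authors deposited 1 table of normalized counts (a signal, not whole counts), which per their methods comes from DESeq2, and the values above 0 were whole multiples of 1 step per library within 0.01. The methods describe stranded polyA libraries, and the labels an adapted CEL-Seq protocol. The submitters' processing notes name BWA 0.6.2-r126 and the builds hg38 and mm10 with no role. The table's capital symbols and row order resemble those of human genes, and which build and gene models the counts rest on is not given in the sources used here.

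The filter was 10 normalized counts in 2 libraries. limma 3.58.1 (R 4.3.3; trend, Benjamini-Hochberg, two-sided) was run on log2(normalized counts + 1). For comparisons with tissue the passages of a line were averaged on the log2 scale, since they are not independent, and the 2 lines, 2 thyroid tissues and 2 lung tissues entered 1 fit. Passages were compared in 1 fit of all 8 libraries. The fits were tested on simulated data. The early and late libraries of a line pair (correlation of deviations 0.477). The members and lists were chosen with earlier results of these data known. Named were all 9 members, receptors targeted by A83-01, BMP type I receptors, main antagonists and targets, up to 3 further called genes per list with the largest change, and the 3 genes most like each member. Of these, the text gives those that bear on the 9 genes, and results of some genes are not reported here. Genes compared between lines, and the widened motif window, were chosen after their values were seen. Positions are from GENCODE M21 (GRCm38), matched by symbol, and may differ from the models counted. Alternatives were the pseudocount, filter, scaling, trend, libraries in the fit, a replicate block and leaving out each library. limma's voom on recovered reads was added after seeing the data. Precision is limited by 2 samples per group.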

Additional observations from a re-analysis of the deposited data

Results flagged for a closer look

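The 2 TFCO lines changed in opposite directions from early to late passage for 7 of the 9 genes (77.8%), beside 46.6% of all genes tested. Each line has 1 library per passage, so the difference between the lines was not tested. On the log2 scale, late minus early in mThy14 and then in mThy16 was -1.0 and 0.20 for Id1, 0.76 and -0.31 for Id2, and 1.17 and -0.41 for Id4. It was 0.58 and -0.34 for Smad6 and -0.11 and 0.21 for Smad7. For the ligands it was 1.96 and -0.57 for Bmp2 and 0.28 and -0.07 for Bmp4. Id3 and Tgfb1 fell in both lines. With 2 samples per group, no sample was tested for standing apart from its group.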

How the results depend on the processing

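Id3 kept its direction and its call in all 16 alternatives, with a log2 fold change of -6.06 to -5.10 against thyroid tissue and of -5.81 to -4.85 against lung. The number of genes called was less steady. Between TFCOs and thyroid tissue, 536 genes were called, 124 with only the groups compared in the fit, 1322 with the 4 TFCO libraries as separate samples, 220 with voom, and 143 to 4026 when 1 library was left out (4026 without thyroid tissue 1, 143 without thyroid tissue 2, 187 without lung 1 and 184 without lung 2). Between TFCOs and lung, 3435 were called, 6979 with only the groups compared, 6625 with separate libraries, and 296 to 6981 when 1 library was left out (372 without lung 1, 296 without lung 2, 6928 without thyroid tissue 1, 6981 without thyroid tissue 2). Between thyroid and lung, 889 were called, 277 with only the groups compared, and 59 to 4288 when 1 library was left out (59 without lung 1, 69 without lung 2, 4288 without thyroid tissue 2). The passages gave 0, and 0 to 2 when 1 library was left out (2 without late mThy16). The cause was not tested. With voom the split of higher and lower calls was 857 and 1964 against lung, beside 1445 and 1990, and 243 and 429 between the tissues, beside 425 and 464. Quantile normalization moved the median of all genes to 0.17, 0.32 and 0.14 in the 3 comparisons with or between tissues, from 0.05, 0.05 and 0.03.

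Of 1600 values for 41 genes, 1471 kept direction and side of the threshold, 71 lost a call, 28 gained one and 30 turned direction. Against thyroid tissue, Tgfb2 turned to 0.18 under quantile normalization and Skil to 0.04 with voom. Against lung, Fst turned to 0.36 with a pseudocount of 5 and to 0.13 under quantile normalization. When 1 library was left out, the log2 fold change against thyroid tissue ranged from -0.29 to 0.13 for Pmepa1, -0.98 to 0.89 for Skil and -0.46 to 0.99 for Smad6, and against lung from -1.32 to 0.94 for Fst. Between thyroid and lung it ranged from -0.17 to 0.07 for Id1, -0.47 to 1.11 for Id2 and -0.03 to 0.54 for Id3. Between passages it ranged from -2.18 to 1.37 for Id1, -0.38 to 0.82 for Id2, -1.0 to 1.76 for Id4, -0.13 to 0.37 for Smad6, -0.03 to 0.14 for Smad7, -0.68 to 2.07 for Bmp2, -0.83 to 1.03 for Bmp4 and -1.25 to 0.60 for Tgfb1. With the TFCO line as a replicate block, 0 genes were called between passages and 224 had an unadjusted p under 0.05, and no call changed. The labels give tissue numbers no shared animal (correlation of deviations -0.073), and with them as a replicate block 756 genes were called between thyroid and lung. The planned count models were not run, since the table was not entered as counts.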
